A study of Mus musculus with 2 samples.

Results

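Open chromatin at 10 macrophage and myeloid genes was examined in the ovary of 2 young female mice, by DNase-seq, which maps the places where the nuclease DNase I can reach and cut the DNA. The genes, of 21951 protein-coding genes in the annotation, were chosen by name: Spi1, Irf8, Csf1r, Ptprc, Cd14, Adgre1, Cd68, C1qa, C1qb and C1qc. The 2 libraries form 1 group, ovary tissue of females of the B6CASTF1/J strain at 36 days of age, a first-generation hybrid of C57BL/6J and a CAST parent, with no treatment named in the labels. Replicates 1 and 2 were labelled as different females and taken as 1 animal each. There was no second condition, so no test between groups was possible, and values are given per library with the mean ± SD of the 2.

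Macrophages live in the ovary between the follicles and in the corpus luteum, where they clear dying cells and remodel tissue. Their identity rests on the transcription factor PU.1, encoded by Spi1, and on signalling through the receptor for colony-stimulating factor 1, encoded by Csf1r. Irf8 is a partner of PU.1 in monocytes and macrophages, and C1qa, C1qb and C1qc encode the chains of C1q, the first component of the classical complement pathway, which resident macrophages make in quantity. In whole tissue the signal of macrophages is mixed with that of all other cells, and fewer cells with an open site cannot be told apart from a site that is less open per cell.

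Most of these genes had no open promoter in the ovary, while every one of the genes had an open site somewhere in its own territory. A promoter was called open when a deposited peak came within 500 bp of any annotated start of the gene. Peaks at 3 of the 10 promoters, those of Irf8, Cd14 and Cd68, were found in both libraries, against 66.7% of all protein-coding genes. Ptprc had a promoter peak in replicate 1 alone, so 4 of the 10 had one in at least 1 library, against 70.1%. The other 6, Spi1, Csf1r, Adgre1, C1qa, C1qb and C1qc, had none in either library. Peaks were assigned to a gene when their centre lay inside it or when its start was the nearest of any protein-coding gene, and peaks of the libraries that overlapped were joined into a site. All 10 genes had at least 1 site found in both libraries, against 79.7% of protein-coding genes.

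The sequences of 11 of these sites are shown because the results turn on them: the promoters of Irf8 and Cd68, the sites of highest value, the strongest or only sites of Adgre1, C1qa, C1qb and C1qc, and an intronic site each of Irf8 and Ptprc. Each is the 150 bp at the centre of the site, on the plus strand, from the C57BL/6J reference of RefSeq, build GRCm38. Capitals mark the letters of 14 short consensus motifs searched on both strands.
Irf8 promoter (chr8:120736226-120736375): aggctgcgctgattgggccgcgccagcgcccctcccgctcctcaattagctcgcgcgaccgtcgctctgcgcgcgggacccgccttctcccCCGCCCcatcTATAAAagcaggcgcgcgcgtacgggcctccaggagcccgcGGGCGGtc
Cd68 promoter (chr11:69666209-69666358): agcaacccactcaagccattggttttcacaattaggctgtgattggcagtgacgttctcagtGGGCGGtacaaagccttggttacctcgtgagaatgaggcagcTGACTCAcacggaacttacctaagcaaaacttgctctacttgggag
Spi1 intron (chr2:91101516-91101665): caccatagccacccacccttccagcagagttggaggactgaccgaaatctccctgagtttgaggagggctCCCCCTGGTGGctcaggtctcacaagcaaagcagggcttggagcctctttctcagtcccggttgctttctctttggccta
Spi1 coding exon (chr2:91115176-91115325): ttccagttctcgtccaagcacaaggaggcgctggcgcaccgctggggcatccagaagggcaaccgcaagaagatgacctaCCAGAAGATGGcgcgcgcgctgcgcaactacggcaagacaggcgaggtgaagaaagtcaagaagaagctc
Irf8 intron (chr8:120750691-120750840): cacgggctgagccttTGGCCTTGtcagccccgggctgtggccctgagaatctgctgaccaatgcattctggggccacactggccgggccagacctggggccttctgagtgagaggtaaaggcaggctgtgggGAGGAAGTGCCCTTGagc
Irf8 downstream (chr8:120796386-120796535): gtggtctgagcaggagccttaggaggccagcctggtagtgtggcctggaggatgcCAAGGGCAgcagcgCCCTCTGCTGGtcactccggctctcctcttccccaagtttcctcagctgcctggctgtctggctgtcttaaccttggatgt
Ptprc intron (chr1:138136446-138136595): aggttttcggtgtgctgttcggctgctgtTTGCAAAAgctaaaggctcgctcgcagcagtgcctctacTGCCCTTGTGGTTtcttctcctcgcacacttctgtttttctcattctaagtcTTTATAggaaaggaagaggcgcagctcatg
Adgre1 upstream (chr17:57335786-57335935): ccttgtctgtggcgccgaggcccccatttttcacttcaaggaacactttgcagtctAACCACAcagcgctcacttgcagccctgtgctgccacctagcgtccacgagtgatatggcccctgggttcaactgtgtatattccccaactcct
C1qa upstream (chr4:136924656-136924805): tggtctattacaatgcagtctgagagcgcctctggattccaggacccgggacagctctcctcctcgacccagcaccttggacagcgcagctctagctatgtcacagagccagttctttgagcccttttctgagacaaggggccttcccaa
C1qb downstream (chr4:136877096-136877245): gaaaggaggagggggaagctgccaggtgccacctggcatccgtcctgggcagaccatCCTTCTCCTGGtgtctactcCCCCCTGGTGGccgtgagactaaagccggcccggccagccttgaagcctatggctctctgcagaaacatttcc
C1qc upstream (chr4:136894076-136894225): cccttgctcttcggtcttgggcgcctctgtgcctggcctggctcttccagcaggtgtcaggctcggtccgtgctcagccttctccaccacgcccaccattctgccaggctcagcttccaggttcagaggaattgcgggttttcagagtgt
In the Irf8 promoter the capitals are the TATA box, TATAAA, between 2 SP matches, GGGCGG, each read on either strand. In the Cd68 promoter they are an SP and an AP-1 match, TGANTCA. The long capital runs in the Spi1, Irf8 downstream and C1qb sequences are matches to CTCF letters, which read CCA, 2 bases of any kind, AG, 2 bases of any kind and GG, and the shorter run in the Irf8 downstream sequence is an NR5A match, CAAGGNCA. The Irf8 intron sequence holds an NR5A match and, further on, PU.1-type ETS letters, GAGGAAG, that run straight into another NR5A match. The Ptprc intron sequence holds a C/EBP match, TTGCNNAA, an NR5A match that overlaps a RUNX match, and TATA letters. The Adgre1 sequence holds a RUNX match, TGTGGTT, on the minus strand. The C1qa and C1qc sequences hold none of the motifs.

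The 2 transcription factor genes differed at their starts, where Irf8 was open and Spi1 was not. Irf8 encodes interferon regulatory factor 8, and its main promoter site (chr8:120736181-120736420) had a peak value of 6.47 in replicate 1 and 3.31 in replicate 2, a mean of 4.89 ± 2.24 (SD, n = 2). The peak value is the authors' own signal, on a scale that the sources used here do not explain. Both values lay far above those at the Cd14 and Cd68 promoters, and the mean stood at percentile 47.8 among all promoters open in both libraries, close to the middle. The lowest false discovery rate, deposited as a q-value per base, was 3.74e-43 in replicate 1 and 1.26e-25 in replicate 2. The TATA box lay under, and the SP match next to it overlapped, a footprint, a stretch of a few bases that the nuclease spared, in both libraries, 22 bp wide in replicate 1 and 14 bp in replicate 2.

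A second Irf8 promoter site (chr8:120736501-120736820), just inside intron 1, had values of 1.08 and 1.04. Open sites also covered the starts of 2 non-coding transcripts inside Irf8. That at chr8:120745416-120745516 had values of 0.645 and 0.537, and that at chr8:120752041-120752380 had 2.42 and 1.52. A further site near an internal coding start (chr8:120738968-120739040) was found in replicate 1 alone, at 0.651. Every Irf8 promoter site found in both libraries was thus higher in replicate 1, as were 79.4% of all shared sites in the genome.

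Spi1 had no peak within 500 bp of any of its 4 annotated starts. The nearest was a site of replicate 1 alone (chr2:91083025-91083157) with a value of 1.02, whose edge lay 617 bp from a start. No q-value was listed within 500 bp in either library, although the lists run up to 0.05. The gene nevertheless held the highest site of all 10 genes. This site (chr2:91115141-91115360) lay in coding exon 5, 32.9 kb from the upstream start, with values of 15.0 and 8.76, a mean of 11.9 ± 4.45 (SD, n = 2) and percentile 98.5 among the 78791 sites shared in the genome. The nearest protein-coding start to it was that of Mybpc3, 2893 bp from its centre, so its place in Spi1 does not say which gene it serves.

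The second Spi1 site (chr2:91101501-91101680), in intron 2, had values of 6.92 and 3.67, a mean of 5.29 ± 2.29 (SD, n = 2). Another (chr2:91098317-91098438), in intron 1, was weak, at 0.827 and 0.543. Both stronger sites were higher than the Irf8 promoter in each library. The upstream neighbour, Slc39a13, starts 11973 bp from Spi1, so any site nearer to that start was not assigned to Spi1 by the rule.

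Beyond its own body Irf8 had a long downstream territory, with assigned sites as far as 162 kb from its upstream start. The nearest other protein-coding start, that of Cox4i1, lay on the upstream side, 63206 bp from a start of Irf8. In all Irf8 held 22 sites, 13 of them shared, the most of the 10 genes. The region downstream of Irf8 is known to hold enhancers used by blood cell lineages, and whether any site here is one of them was not tested. The strongest of 7 shared downstream sites (chr8:120796361-120796560), 60.1 kb from the start, had values of 5.28 and 2.53, a mean of 3.91 ± 1.94 (SD, n = 2). The next (chr8:120800601-120800800), 64.3 kb away, had 1.37 and 1.15. The intronic site whose sequence is shown (chr8:120750621-120750911, intron 6) had 1.55 and 0.694, a log2 ratio of 1.16 between the replicates.

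**Figure D1:**
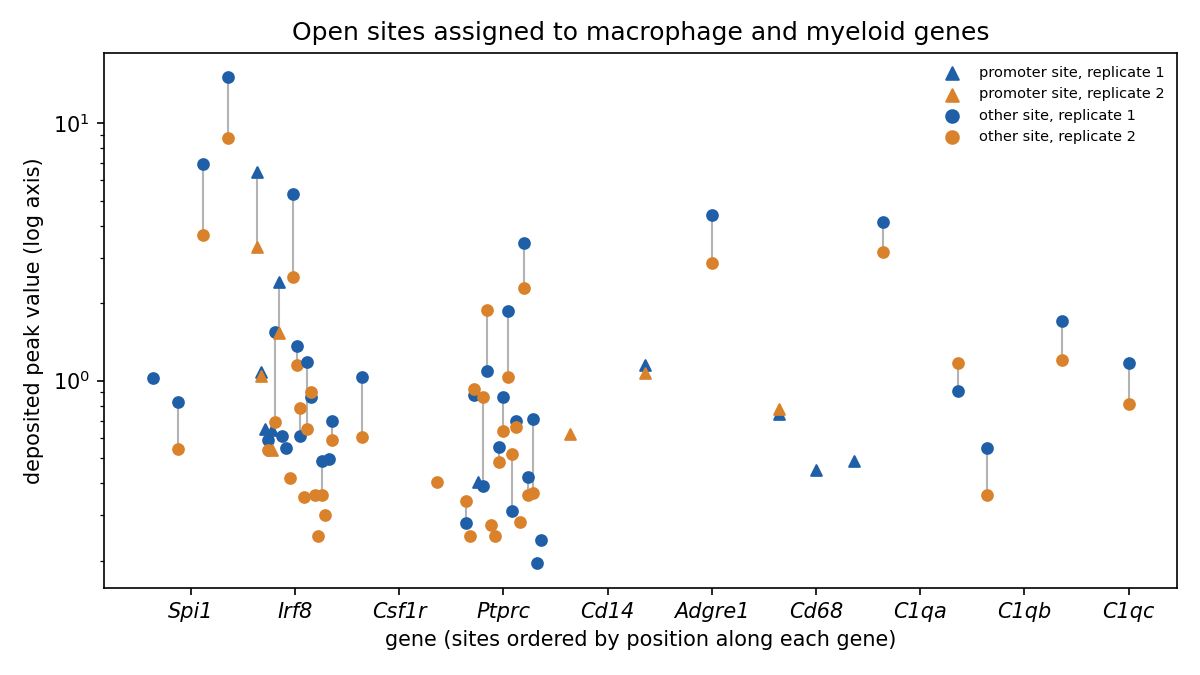
Deposited peak value (log axis) of each site assigned to the 10 genes, with replicate 1 in blue and replicate 2 in orange, a grey line joining the values of a site found in both libraries, and triangles for promoter sites. The Spi1 exon site is the highest, at 15.0 and 8.76, and the promoter sites of Cd14 and Cd68 lie near 1 or below.

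Among the receptors, Csf1r had no promoter peak and no listed q-value within 500 bp of any of its 6 starts. Its 1 shared site (chr18:61108514-61108785) lay in intron 1 of the transcript Csf1r-202, with values of 1.04 and 0.602 and a mean of 0.819 ± 0.307 (SD, n = 2). The site began 2635 bp from the nearest start and stood at percentile 41.3 of all shared sites. An intron of Csf1r is known to hold an enhancer active in macrophages, and whether this site is that element was not tested. A second site, in intron 14 (chr18:61127570-61127708), was found in replicate 2 alone at 0.406, and lay nearer the start of Hmgxb3 than a start of Csf1r.

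Ptprc encodes CD45, the tyrosine phosphatase on the surface of all nucleated blood cells. Its promoter count rests on a peak of replicate 1 (chr1:138120021-138120220) with a value of 0.404, in coding exon 5 and exactly 500 bp from the start of a non-coding internal transcript. At its coding starts, at the other end of the gene, the nearest peak lay over 16 kb away in each library. The lowest q-value within 500 bp of a start was 0.0337 in replicate 1, and none was listed in replicate 2. Inside the gene 2 shared sites were found, named here after their values were seen. That in intron 2 (chr1:138136321-138136720) had values of 0.879 and 0.929, and that in intron 20 (chr1:138085921-138086100) had 0.391 and 0.864. Both were higher in replicate 2, against the direction of most shared sites.

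Ptprc had 19 sites in all, 12 of them shared, but most lay in the wide gene-poor stretch downstream of it. The strongest (chr1:137898461-137898740), 277 kb from the upstream start, had values of 3.43 and 2.30 and covered the start of the non-coding gene Gm4258. The next (chr1:138044661-138044820), 131 kb away, had 1.09 and 1.87, with a log2 ratio of replicate 1 over replicate 2 of -0.78, whereas the median over all shared sites was 0.41. Another (chr1:137927981-137928260), 248 kb away, had 1.86 and 1.03 and covered the start of A130050O07Rik, a transcript of unsettled type. Over all 37 shared sites, 4 lay within 500 bp of a start of another gene of any type, and all 4 had been assigned to Ptprc.

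Cd14 encodes the co-receptor that hands bacterial endotoxin to the toll-like receptor complex. Its shared site (chr18:36725361-36726440) was broad, covering much of this short gene, with values of 1.15 and 1.07 and a mean of 1.11 ± 0.0609 (SD, n = 2). That mean stood at percentile 12.1 among open promoters. The site stopped 298 bp short of the nearest start. A separate peak over the start (chr18:36726481-36726912) was called in replicate 2 alone, at 0.622, and the lowest q-value there was 0.0234 in replicate 1 and 0.000690 in replicate 2.

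Adgre1 encodes F4/80, the classic surface marker of mouse macrophages. Its 5 starts had no peak and no listed q-value within 500 bp. Its only site (chr17:57335781-57335940), 22.8 kb upstream, was strong in both libraries, at 4.41 and 2.87, a mean of 3.64 ± 1.09 (SD, n = 2) and percentile 85.1 of shared sites. No open site was assigned inside the gene.

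Cd68 encodes a lysosomal membrane protein of macrophages. Its promoter site (chr11:69666148-69666420) was among the weakest open promoters, with values of 0.742 and 0.779, a mean of 0.761 ± 0.0256 (SD, n = 2) and percentile 6.77. The SP match in its sequence lay under a footprint in both libraries, 14 bp wide in replicate 1 and 15 bp in replicate 2. Weaker peaks over exon 1 (chr11:69666001-69666072, value 0.449) and exon 2 (chr11:69665558-69665733, value 0.488) were called in replicate 1 alone. Eif4a1, a gene for a translation factor, was the nearest neighbour, with a start 1910 bp away, so no other protein-coding start lay within the promoter window.

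The 3 C1q genes lie side by side on the minus strand of chromosome 4, and their 5 shared sites all lay outside the genes. None of the 3 had a promoter peak or a listed q-value within 500 bp of a start. C1qc came nearest, with a site (chr4:136894061-136894240) whose edge was 996 bp upstream of its start and whose values were 1.17 and 0.811. Upstream of C1qa, 25.9 kb from the start, a stronger site (chr4:136924641-136924820) had values of 4.13 and 3.17, a mean of 3.65 ± 0.68 (SD, n = 2). Another, 8.47 kb upstream (chr4:136907181-136907360), had 0.912 and 1.17. At the other end of the cluster, 9.02 kb past the C1qb start, a site (chr4:136877081-136877260) had values of 1.71 and 1.20, and a weaker one at 7.36 kb (chr4:136878752-136878912) had 0.547 and 0.360. The sites of highest mean value on each side thus lay beyond the ends of the cluster, and only the C1qc site lay between 2 of the genes.

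**Figure D2:**
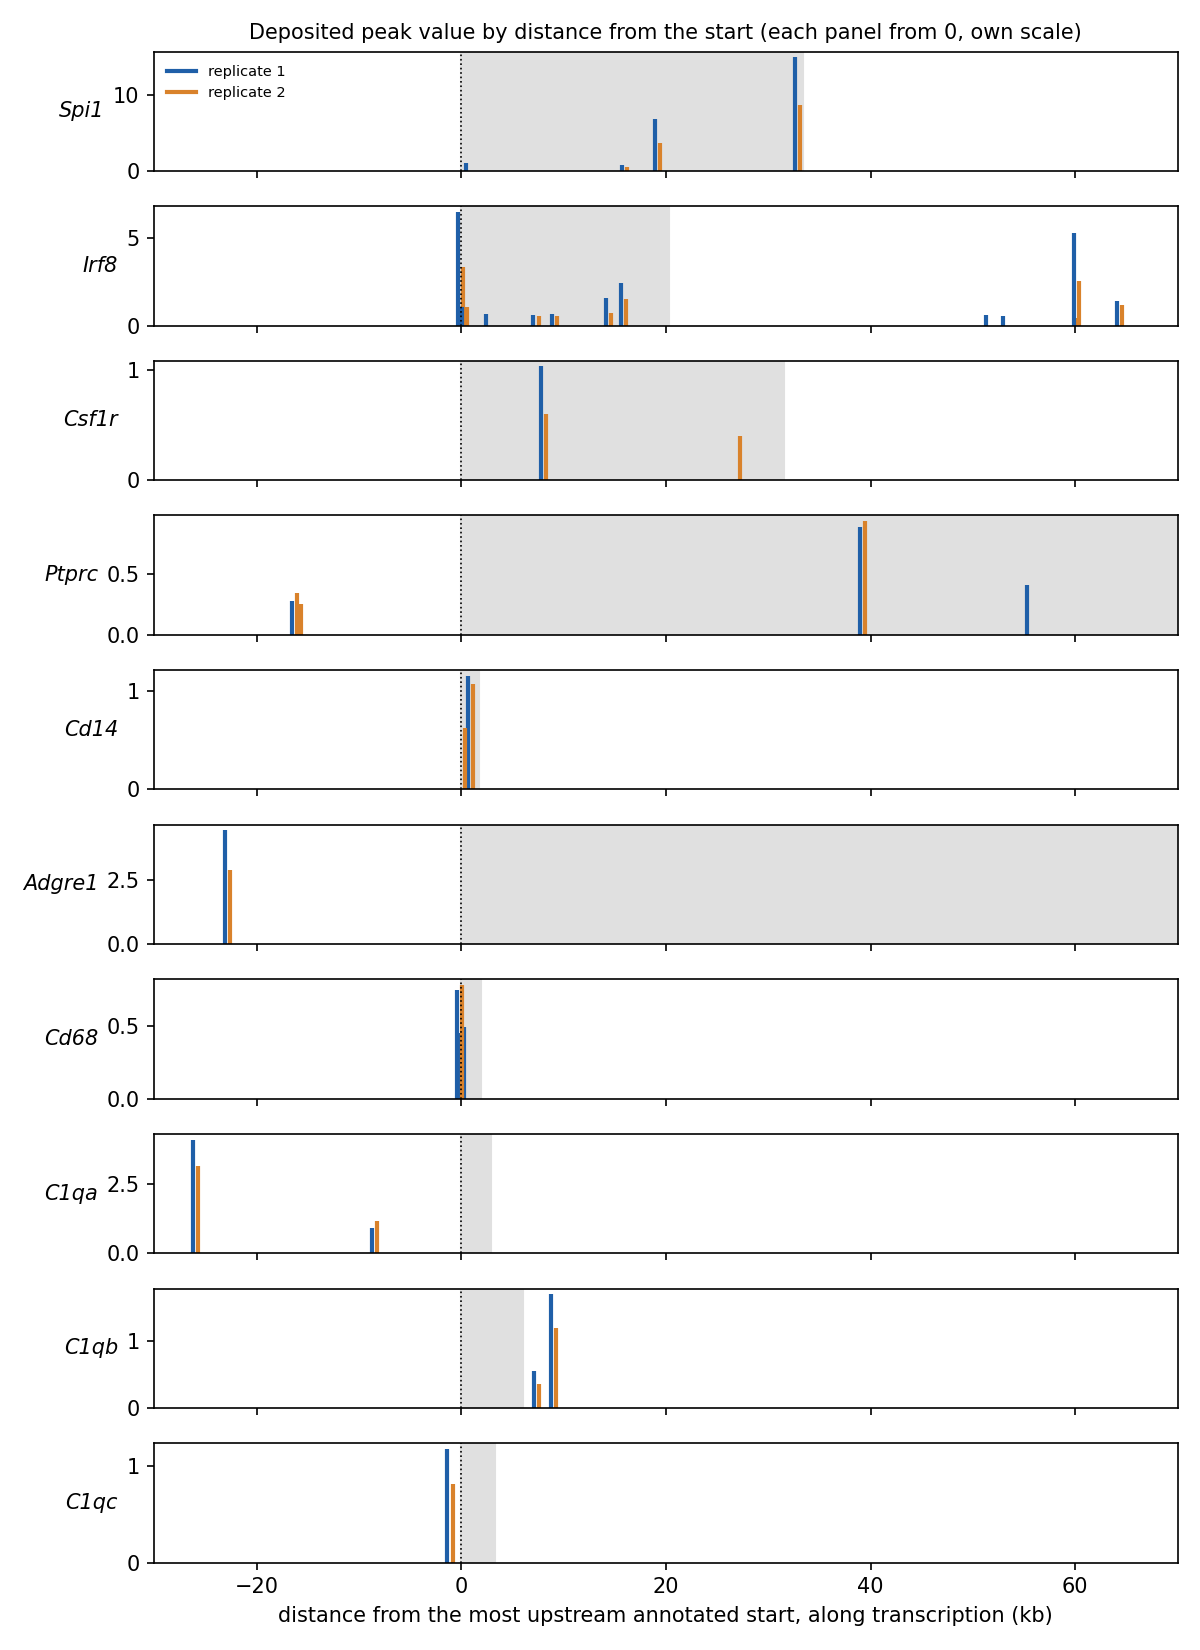
Deposited peak value of each assigned site by its distance in kb from the most upstream start, along the direction of transcription, between -30 and 70 kb, with replicate 1 in blue and replicate 2 in orange side by side and the gene body shaded; each panel starts at 0 on its own scale. Irf8 and Cd68 have bars of both libraries at or next to the start. Cd14 has bars of both libraries 0.897 kb past the start and a bar of replicate 2 alone 0.101 kb past it. Spi1 has a bar of replicate 1 alone 0.701 kb from the start, and the C1qc bars stand 1.09 kb upstream of it. Sites of Irf8 and Ptprc beyond 70 kb are not drawn.

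Promoters rich in CpG are open in most tissues whatever their gene does, so the 10 promoters were set beside others of like CpG content. The CpG ratio, observed over that given by base composition in the 500 bp to either side of the most upstream start, was ranked over protein-coding genes and cut into 10 classes. Irf8, in class 8, was the only member with a CpG-rich promoter, and 96.9% of genes in that class were open in both libraries. Spi1, Adgre1 and C1qc fell in class 2, where 17.6% were open, and none of these 3 was. Csf1r, Ptprc and Cd68 fell in class 3, where 30.5% were open, and 1 of the 3 was, Cd68. Cd14, C1qa and C1qb fell in class 4, where 51.5% were open, and 1 of the 3 was, Cd14. The lower count of open promoters among the 10 genes therefore went with a low CpG content in 9 of them, and the part of CpG content in it was not tested.

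**Figure D3:**
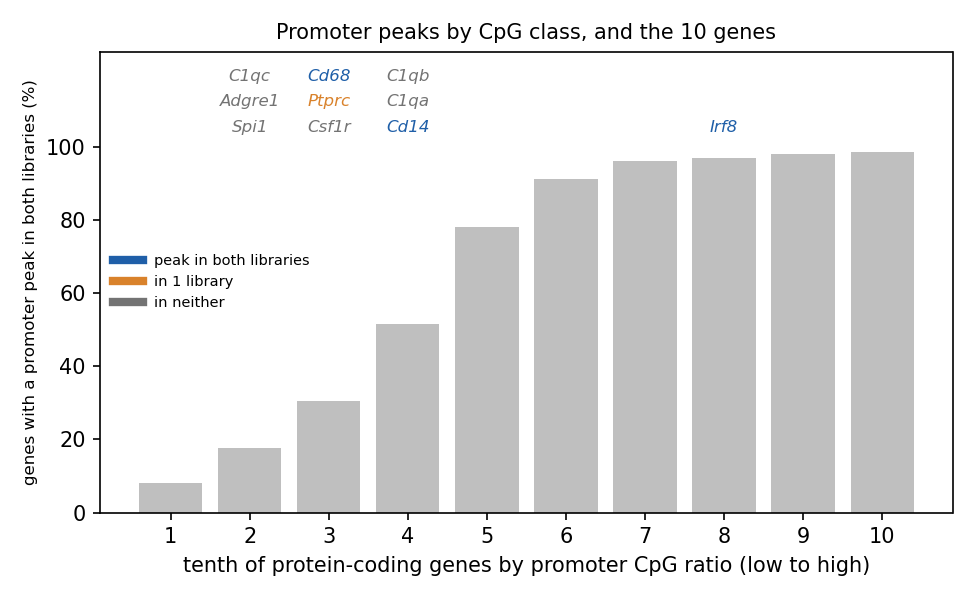
Share of protein-coding genes with a promoter peak in both libraries (%) in each of 10 classes by promoter CpG ratio, low to high, as bars from 0, with each of the 10 genes named above its own class in the colour of its promoter state. Irf8 stands alone in a class where 96.9% are open, and the other genes fall in classes where 17.6% to 51.5% are.

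Weak opening below the peak threshold was looked for in the listed q-values. Within 500 bp of a start, 3 of the 10 genes had a listed q-value in both libraries, against 67.4% of protein-coding genes, and the same 3 had one at or below 0.01 in both, against 65.5%. The 6 genes without a promoter peak had none at all, as was the case for most such genes, since only 174 of 6557 protein-coding genes without a promoter peak (2.65%) had a listed q-value in either library. Within 1000 bp, Spi1 reached 0.0179 in replicate 1 alone, and C1qc reached 5.86e-05 in replicate 1 and 0.000297 in replicate 2, from the site upstream of it.

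The 58 sites of the 10 genes came from 49 peaks in replicate 1 and 50 in replicate 2. Of these sites 37 were shared, 10 were found in replicate 1 alone and 11 in replicate 2 alone. Over the whole genome 78791 of 138061 sites were shared. The sites of 1 library were weak, with values from 0.195 to 1.02 and a median of 0.404. Mean values of the shared sites ran from 0.310 to 11.9 with a median of 0.904, against a median of 0.988 over all shared sites, and 17 of the 37 lay above that. Of the 37, 12 lay inside the gene, 7 upstream and 18 downstream. Replicate 1 was higher at 28 of them and replicate 2 at 9, and the 9 included 5 of Ptprc.

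Motif letters in the shared sites were counted within 150 bp windows and set beside the share of all shared sites in the genome. PU.1-type ETS letters, GAGGAAG, were in 1 of 37 windows (2.70%), that of the Irf8 intronic site, against 6.48% of all windows. Other ETS letters, CCGGAAG, and IRF letters, a pair of GAAA set 2 bases apart, were in none, against 3.32% and 1.25% of all windows. C/EBP letters, TTGCNNAA, were in 3 windows (8.11%), against 6.11%. RUNX letters were in 4 (10.8%), one each at Spi1, Irf8, Ptprc and Adgre1, against 2.67%. NR5A letters, CAAGGNCA, a loose spelling of the site of the nuclear receptors Nr5a1 and Nr5a2, were in 6 windows (16.2%), against 8.75%. The N takes any base, so not every match is the usual site of these receptors. SP letters were in 5 (13.5%), against 19.7%. TATA letters were in 3 (8.11%), against 2.78%. GATA letters, AGATAAG, and forkhead letters, TGTTTAC, were in 2 windows each (5.41%), against 1.80% and 1.85%. AP-1 letters were also in 2 (5.41%), against 5.00%. E-box letters, CACGTG, were in none, against 3.92%, as were those of NFI, TTGGC and GCCAA set 5 bases apart, against 0.135%, and CTCF letters were in 8 (21.6%), against 15.4%. With 37 windows each match moves the share by 2.70 percentage points, and a match is no proof of binding.

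Footprints gave a finer view of the strong distal sites. Inside the assigned peaks there were 100 footprints in replicate 1 and 113 in replicate 2, or 10.8 and 10.6 per kb, against 11.2 and 9.96 per kb over all peaks. Of these 49 in replicate 1 and 50 in replicate 2 overlapped one of the other library, and the share over all footprints was not counted. Long footprints, of at least 20 bp in both libraries, were in 11 of the 37 windows (29.7%), against 29.6% of all shared windows. CTCF is the protein that anchors chromatin loops and insulates domains, and its letters were searched after the sites had been seen. They lay under a long footprint in 5 of those 11 windows (45.5%), against 28.4% of all windows with one.

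At the Spi1 exon site the footprint over the CTCF letters was 35 bp wide in both libraries, and at the Spi1 intron site it was 33 bp in replicate 1 and 29 bp in replicate 2. In the sequence of the intron site the stretch shared by both footprints ran from base 59 to base 87, around the capital letters. At the Irf8 site 60.1 kb downstream the footprint was 32 bp in both, and the downstream C1qb site had one of 16 bp in both. The Adgre1 upstream site had a footprint of 30 bp in replicate 1 and 28 bp in replicate 2, from base 79 to base 106 of its sequence, over no CTCF letters of this spelling. The strong C1qa site had one of 33 bp and 32 bp, also without them. Both libraries placed a long protected stretch at the same position in the strongest site of Spi1, Adgre1 and C1qa. The strongest shared site of each of the other genes held no footprint of at least 20 bp in both libraries. The widest overlapping pair was 22 and 14 bp at that of Irf8, and 24 and 19 bp at that of Ptprc. Over all shared windows 29.6% held a long footprint, and the share among sites of like value was not counted.

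**Figure D4:**
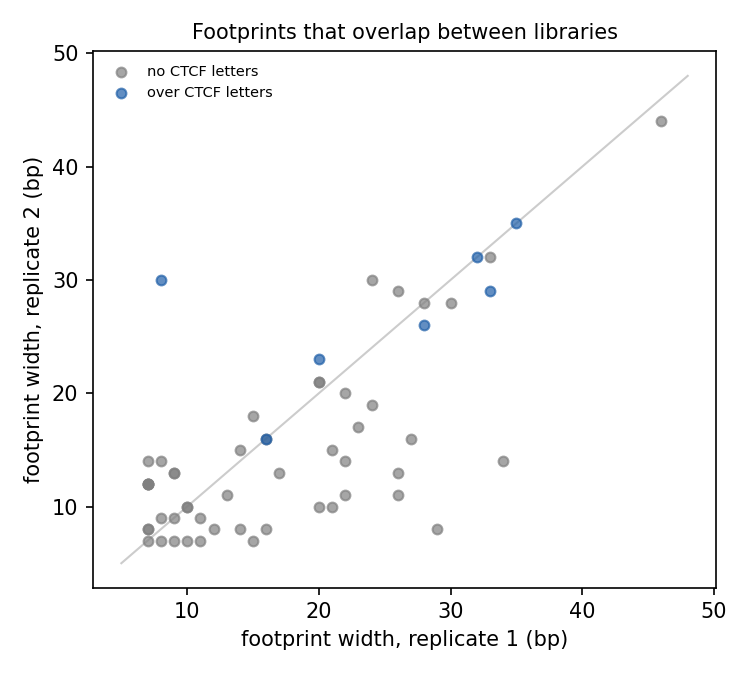
Width in bp of each pair of overlapping footprints inside the shared sites of the 10 genes, replicate 1 across and replicate 2 up, with pairs over CTCF letters in blue and the line of equal width in grey. Pairs lie both on and far from the line, from 1 of 35 bp in both libraries to 1 of 8 bp in replicate 1 and 30 bp in replicate 2.

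Partners of the 10 genes were counted in 7 lists, in which 41 of 56 genes (73.2%) were open in both libraries, against the 66.7% given for all protein-coding genes. All 5 growth factors and receptors were open, among them Csf1, the ligand of the Csf1r receptor, at 4.45 and 2.63, and Il34, its other ligand, at 0.599 and 0.622. Csf2ra, a receptor chain for granulocyte-macrophage colony-stimulating factor, was the highest of them at 8.23 and 4.83. Mean values in this list ran from 0.287 to 6.53, and the lowest was below 0.404, the median value of the 1-library sites of the 10 genes. All 9 other myeloid transcription factors were open, among them Cebpa at 16.7 and 9.04 and Cebpb at 8.97 and 4.73. These factors are also used outside blood cells, and a start of Tmem189 lies within 1000 bp of one of Cebpb.

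The partners of Cd14 and C1q were open as well. All 6 endotoxin receptor partners were, with the adaptor genes Myd88 at 8.56 and 4.91 and Ticam1 at 5.95 and 3.64, and the receptor gene Tlr2 at 5.37 and 3.04, although a start of Acaa1a lies within 1000 bp of one of Myd88. All 7 classical complement partners were, with C1ra, a protease that binds C1q, at 1.90 and 1.85, and Serping1, its inhibitor, at 2.21 and 1.33. C2 was highest at 5.93 and 2.92, with starts of Ehmt2, Gm20547 and Zbtb12 within 1000 bp. Thus the genes that make the proteases partnering C1q had open promoters while the genes of the C1q chains had none. Of the kinases that work beside CD45, 7 of 8 were open, led by Csk at 13.3 and 6.09, Fyn at 11.9 and 5.67, and Lck at 10.4 and 4.43, and Fgr was not.

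The lists of lysosomal, scavenger and surface genes had fewer open promoters than the 66.7% of all protein-coding genes. Their genes without a peak in either library all fell in CpG classes 1 to 4, where 8.11% to 51.5% of genes were open. Their open genes fell in classes 6 to 9, except Trem2 in class 2. The part of CpG content in this was not tested. Of 9 lysosomal and scavenger genes 4 were open, with the general lysosomal genes Lamp1 at 18.3 and 7.85, Ctsd at 16.1 and 6.54 and Lgmn at 13.0 and 7.53. The 5 without a peak included the scavenger receptor gene Cd163 and the cathepsin gene Ctss. Of 12 other surface markers 3 were open, the Fc receptor gene Fcgr3 at 7.26 and 5.43, Mertk at 8.06 and 4.14 and Trem2 at 0.436 and 0.373. The 8 without a peak included Aif1 and Ccr2, and Itgax had one in replicate 2 alone.

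Markers of ovarian cells and of other cells were counted in the same way. All 8 granulosa markers were open, against 66.7% of all protein-coding genes, led by Foxl2 at 6.14 and 3.19 and Kitl at 5.58 and 3.06. Foxl2, Kitl and Inhbb fell in CpG class 8 and Esr2 in class 6, where 96.9% and 91.3% of genes were open. Open promoters of these genes therefore say little about the tissue. Amh, Nr5a2, Inha and Fshr fell in classes 2 to 4, where 17.6% to 51.5% were open. Of other cells, 1 of 6 lymphocyte markers was open, Cd2 at 1.24 and 1.30, at an internal start of a non-coding transcript, with Cd3d among the 5 without a peak. Of the endothelial markers 2 of 5 were open, Kdr at 2.14 and 1.47 and Cdh5 at 1.19 and 0.955, with Erg and Pecam1 without a peak. Of the neutrophil markers 2 of 5 were, Mpo at 0.755 and 0.471 and S100a8 at 0.658 and 0.425, with Elane and Ly6g without a peak. The red cell markers Hba-a1 and Hbb-bs had no promoter peak. The part of blood in the vessels of the tissue in the values at the 10 genes was not tested.

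**Figure D5:**
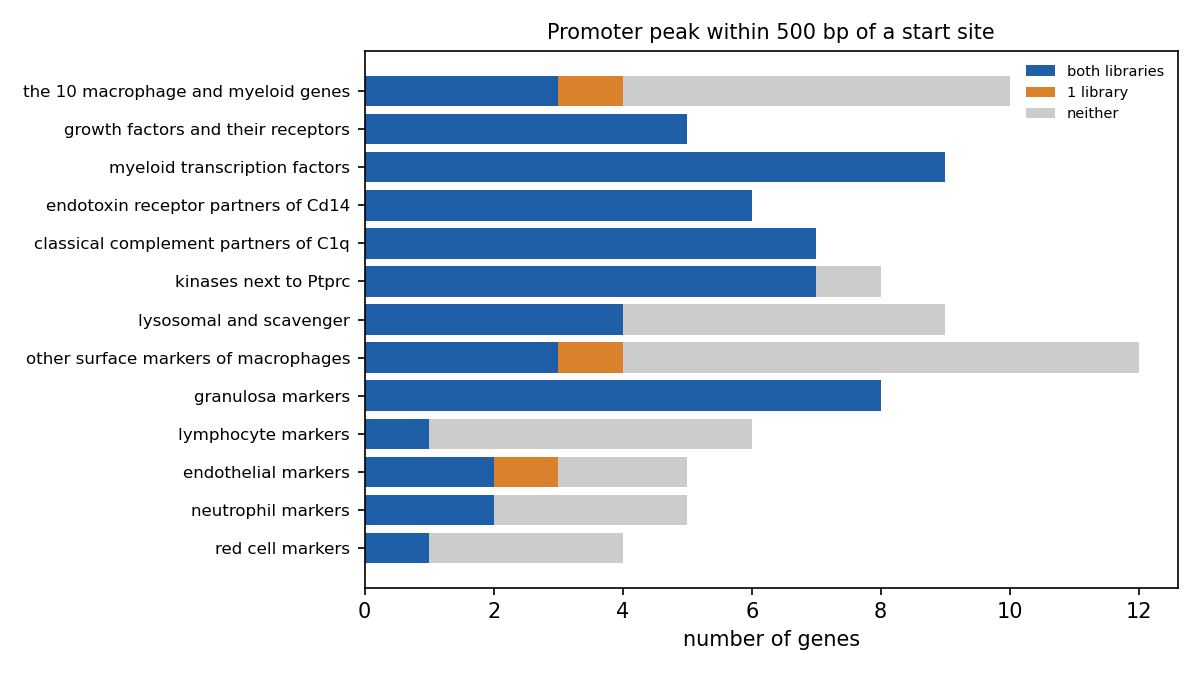
Number of genes with a promoter peak in both libraries (blue), in 1 (orange) or in neither (grey), for the 10 macrophage and myeloid genes, 7 lists of their partners and 5 lists of cell type markers. The first bar has 3 of 10 genes in blue, while the lists of growth factors, transcription factors, endotoxin receptor partners, complement partners and granulosa markers are wholly blue.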

How the data were processed

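DNase-seq libraries of ovary from 2 mice were used on build mm10, per the labels. The authors called intervals library by library from filtered alignments, per the deposited descriptions. The aligner, caller, versions, thresholds and read depth were not given in the sources used here. Hence no counting interval could be set on a value. Each peak carries a signal deposited by the authors. In both libraries 100% of the signals checked were whole multiples of 1 step, within 0.05 of a step, and that a step is 1 read was not shown. The authors deposited q-values per base, listed up to 0.05, and footprints, of which positions were used.

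The longer peak list of each library was used. Promoters reached 500 bp around every annotated start of a gene (GENCODE M21). Peaks that overlapped by 1 base formed a site, whose value is its highest peak. Numbers came from Python 3.11.15, numpy 2.4.6, pandas 2.3.3 and pysam 0.24.0, and the counting steps were tested on simulated data. The 10 genes, the lists and the motifs were chosen with earlier results of these data known. From each list the 3 open genes of highest mean value (2 for markers) and 2 without a peak, in alphabetical order, were named, and for each of the 10 genes the promoter sites and the 3 strongest other shared sites. Some items that the rule names are not reported here. Sites outside this rule are marked or given with a sequence or a count. The CTCF letters, the long footprints, the GENCODE basic set and starts in the first 1000 bases were added after seeing the data. Sequence was read from the C57BL/6J reference, and CAST alleles were not analysed here. The labels call the samples biological replicates, and with n = 2 an SD is rough.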

Additional observations from a re-analysis of the deposited data

How the results depend on the processing

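The count of open promoters, 3 of 10, ran from 2 to 4 under the alternatives. It was 2 with the shorter peak lists or with peaks above the median value, which leave Irf8 and Cd14, and 4 with a reach of 1000 bp, which adds C1qc. The shares over all protein-coding genes were 62.7%, 61.2% and 68.1% in these settings. The count was 4 with replicate 1 alone, which adds Ptprc, and 3 with replicate 2 alone, against 68.8% and 67.9% of all protein-coding genes. It stayed at 3 with coding starts, the most upstream start, starts in the first 1000 bases or the GENCODE basic set. Those settings gave 65.6%, 61.2%, 62.1% and 64.9% of all protein-coding genes. The 37 shared sites fell to 19 with peaks above the median value, since fewer peaks enter, and were 26 with the shorter lists. The log2 ratio of replicate 1 over replicate 2 at the Cd14 promoter, 0.11, turned to -0.30 relative to the median of shared sites and to -0.27 relative to sites of like value; that at Irf8, 0.97, became 0.55 and 0.24. Partners with open promoters, 41 of 56, ran from 33 to 42, while the share over all protein-coding genes ran from 61.2% to 68.8%. No paired analysis was possible because the libraries form 1 group. The unknown depth limits what the absence of a peak can show, and assignment by the nearest start does not say which gene a site serves.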
